A study of Mus musculus with 23 samples.

Results

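The co-occurrence of 3 histone marks and the pluripotency factor NANOG was described in Bach1-knockout mouse embryonic stem cells from 5 deposited peak lists: H3K4me3, H3K4me1, H3K27ac and NANOG replicates 1 and 2. The lists were taken by their labelled genotype and target, with no use of measured values, and held 113235 of the 243327 peaks in the 12 peak lists of the series. The study asked how loss of BACH1, a heme-binding transcription factor of the CNC family, alters embryonic stem cells, by chromatin immunoprecipitation (ChIP) sequencing and RNA sequencing of wild-type (WT) and knockout cells. The parental line was E14Tg2A, a mouse embryonic stem cell line, kept without feeder cells on gelatin in medium with fetal bovine serum and leukemia inhibitory factor. The knockout cells, labelled Bach1 -/-, were made in that line with CRISPR/Cas9, and the sources do not say whether they are 1 clone or several. The WT cells used beside them carry no engineered change per the labels, and neither genotype received a treatment. Each histone mark had 1 ChIP sample per genotype, and NANOG had 2 replicate lists per genotype, which are given side by side. No test across samples was made. All values below are descriptions, and their intervals are 95% Wilson binomial intervals that cover counting error over peaks only.

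H3K4me3, trimethylation of lysine 4 of histone H3, is placed by SET1 and MLL-type methyltransferases at the start sites of active and of CpG-rich genes. H3K4me1, monomethylation of the same lysine, is found over enhancers and along the shoulders of active promoters. H3K27ac, acetylation of lysine 27, is added by the acetyltransferases CBP and p300 and marks enhancers and promoters in use. NANOG is a homeodomain transcription factor that binds enhancers of the stem cell program, often near OCT4 and SOX2. By convention, regions with H3K4me3 are called promoter-like here, and H3K4me1 regions without H3K4me3 are called enhancer-like, active where H3K27ac is also present. These names rest on the overlap of peaks by at least 1 bp and not on gene positions: no annotation of mm9, the build of the lists, was used, so no gene is named at a region.

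RNA from the same genotypes fitted the labelled cell type. All 10 stem cell markers, among them Pou5f1 (1556.82 ± 28.5 TPM, transcript abundance scaled to library total, SD, n = 3) and Nanog (116 ± 4.73 TPM), were above 1 TPM in the knockout libraries, while 5 of 6 fibroblast markers were below it and Thy1 was at 12.0 ± 0.501 TPM. Marker levels differed between genotypes in both directions. In the WT libraries Nanog was higher, at 306 ± 2.52 TPM, while Pou5f1 was lower, at 1231.52 ± 21.6 TPM, as was Thy1, at 3.11 ± 0.192 TPM. The targeted gene, Bach1, was listed at 1.69, 1.76 and 2.05 TPM in the knockout libraries. It was listed at 2.35, 2.50 and 2.70 TPM in the WT libraries. The ranges of Bach1 did not overlap, and its transcript was still detected in every knockout library. Whether the protein was lost is not shown by the files used here.

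The knockout lists differed in number and width. The H3K4me1 list held 54227 regions with a median width of 1312 bp that together covered 112 Mb. The H3K27ac list held 25755 peaks with a median of 647 bp over 19.5 Mb, and the H3K4me3 list held 11157 peaks with a median of 2708 bp over 33.6 Mb. NANOG replicate 1 held 2071 peaks and replicate 2 held 20025, with median widths of 499 and 263 bp. H3K4me1 was thus the most widespread list. Its median −log10 p was 3.90, against 17.9 for H3K4me3 and 11.9 for H3K27ac, but the values come from different caller layouts, and in the broad layout of H3K4me1 each is a mean over the region. The H3K4me1 layout and its smallest gap of 1197 bp between neighbours show broad regions already joined, while H3K4me3 and H3K27ac peaks came as close as 2 bp. No list states its read depth, so differences in peak number between lists could not be separated from depth. A −log10 p of at least 10 left 92 H3K4me1 regions, so the classes cannot be set on a common strict threshold.

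Most promoter-like peaks carried all 3 marks. Of the 11157 knockout H3K4me3 peaks, 84.2% (interval 83.5 to 84.8) overlapped H3K4me1 and 76.7% (75.9 to 77.5) overlapped H3K27ac, although the H3K27ac list covered only 0.737% of the 2646.1 Mb that the lists span. Both other marks were present at 7578 peaks, or 67.9% (67.0 to 68.8). H3K4me1 alone accompanied 1813 peaks (16.2%), H3K27ac alone accompanied 978 (8.77%), and 788 (7.06%) carried neither. In the reverse direction the shares were smaller, and the other lists were longer. H3K4me3 was met by 22.5% of H3K4me1 regions and by 38.1% of H3K27ac peaks, and H3K27ac was met by 13.9% of H3K4me1 regions.

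Enhancer-like chromatin was mostly H3K4me1 without acetylation. Of the H3K4me1 regions, 42017 (77.5%) had no H3K4me3 peak, and 38073 of all regions (70.2%, 69.8 to 70.6) had neither other mark. The active enhancer-like class, with H3K27ac and no H3K4me3, held 3944 regions, or 7.27% (7.06 to 7.50). The remaining 12210 regions touched a promoter-like peak, 3616 of them (6.67% of all regions) with H3K27ac inside the same region. H3K27ac peaks split differently: 38.1% were promoter-like, 5825 (22.6%) were enhancer-like, and 10127 (39.3%, 38.7 to 39.9) overlapped neither form of H3K4 methylation.

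**Figure D1:**
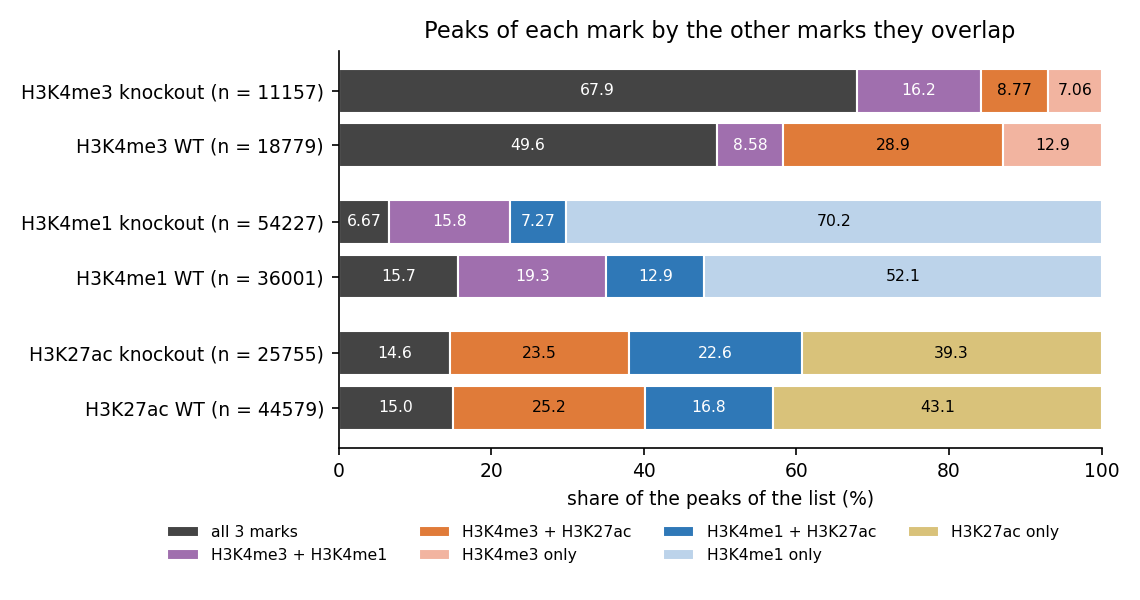
Share of the peaks of each histone mark list (x axis, percent) by the other marks they overlap by at least 1 bp, in knockout and WT lists, with the number of peaks per list. In knockout cells 67.9% of H3K4me3 peaks carried all 3 marks, 70.2% of H3K4me1 regions carried no other mark and 39.3% of H3K27ac peaks lay outside both methylation marks.

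Joining the 3 lists wherever peaks overlapped gave 63046 regions. Of these, 60.4% were H3K4me1 alone, 16.1% were H3K27ac alone, 7493 (11.9%) held all 3 marks, and 3933 (6.24%) held H3K4me1 with H3K27ac. Regions with H3K4me3 but without H3K4me1 were few: 977 with H3K27ac and 788 with H3K4me3 alone. Regions with all 3 marks covered 41.2 Mb, second to the 63.6 Mb of regions with H3K4me1 alone. The 3-mark regions are therefore a minority by number and a larger part by length, with a median width of 4003 bp.

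H3K4me3 peaks with more marks were wider, and so were H3K4me1 regions with H3K27ac. H3K4me3 peaks with both other marks had a median width of 3066 bp (quartiles 2424 and 3893), against 2223 bp with H3K4me1 alone, 2208 bp with H3K27ac alone and 1785 bp with neither. Active enhancer-like H3K4me1 regions had a median width of 3036.5 bp, against 1177 bp for H3K4me1-only regions. Among H3K4me1 regions alike in H3K27ac, those with H3K4me3 were not wider. Their median was 1107 bp with H3K4me3 alone and 2948.5 bp with both other marks. Without regard to H3K27ac, H3K4me1 regions with H3K4me3 were wider, with a median of 1507 bp, against 1274 bp for those without it. For H3K27ac the axis was H3K4me3: peaks at promoter-like sites had a median width of 794 bp, against 575 bp at enhancer-like sites and 593 bp with neither mark. A wider peak has more room to meet another, so width and overlap are not separate measures.

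**Figure D2:**
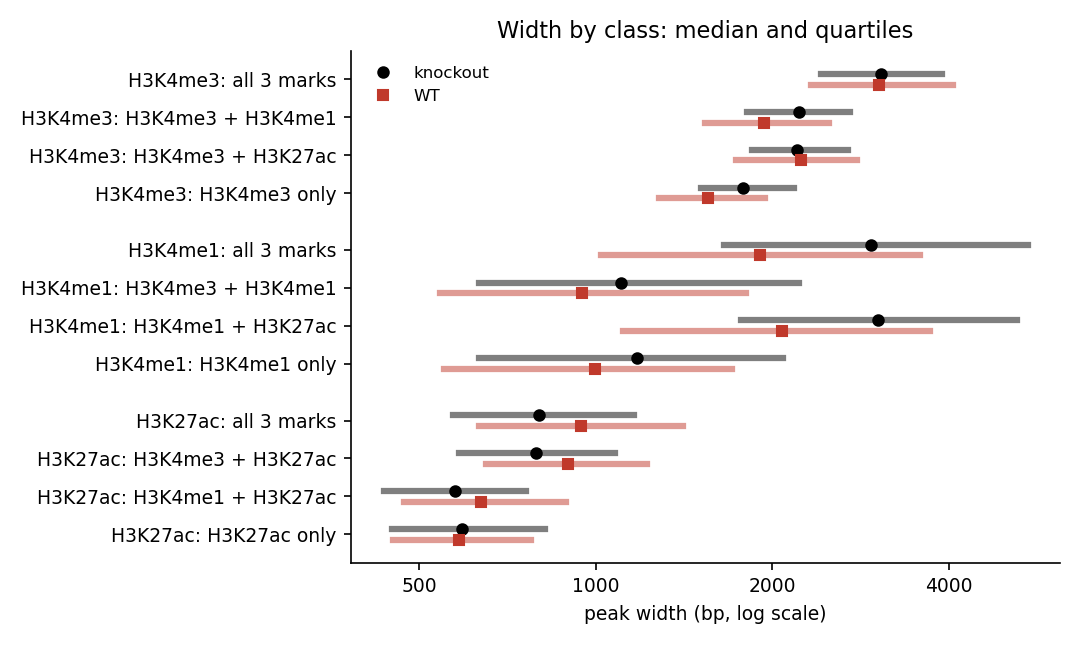
Peak width (x axis, bp, log scale) by class for each mark list, as the median (points) and the quartiles (bars), in knockout and WT lists. The widest knockout classes are H3K4me3 with all 3 marks (median 3066 bp) and H3K4me1 with H3K27ac (3036.5 bp).

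The number of peaks inside a region followed its width as well. Of the H3K4me3 peaks, 7535 (67.5%) held 1 H3K27ac peak, 860 held 2 and 161 held 3 or more, up to 10 in 1 peak. Of all H3K4me1 regions, 428 (0.789%) held 3 or more H3K27ac peaks, with a median width of 10139.5 bp and up to 14 H3K27ac peaks in 1 region.

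The strength of a promoter-like peak went with its marks. Each list was split into 4 equal bins by −log10 p. In the lowest bin of H3K4me3 peaks, 49.0% carried all 3 marks and 13.0% carried neither other mark. In the highest bin, 87.4% carried all 3 and 1.47% carried neither. H3K4me1 regions showed the same order: 2.62% of the lowest bin and 14.1% of the highest were active enhancer-like. H3K27ac showed it only in part. Peaks with neither methylation mark made up 42.1%, 37.9%, 32.0% and 45.2% of the H3K27ac bins from lowest to highest. Enhancer-like H3K27ac peaks went from 35.9% of the lowest bin to 5.42% of the highest. H3K27ac peaks with H3K4me3 but no H3K4me1 increased, from 10.9% to 34.7%. Those with all 3 marks made up 11.2%, 13.9%, 18.6% and 14.6% of the bins.

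H3K4me1 lay on the shoulders of promoter-like peaks and H3K27ac in their middle. H3K27ac covered 51.3% of H3K4me3 peak centres and 11.6% and 11.8% of the positions 1000 bp to either side. H3K4me1 covered 31.2% of the centres but 44.6% and 45.3% of the positions 1000 bp away, and was down to 16.5% and 16.4% at 5000 bp. The profile of H3K4me1 is thus 2-peaked around the H3K4me3 centre, and that of H3K27ac has 1 peak. By contrast, 90.7% of the centres of enhancer-like H3K27ac peaks lay within H3K4me1, and coverage decreased steadily to 70.2% and 70.6% at 1000 bp.

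Single peaks showed the full arrangement in a minority of cases. H3K4me1 covered both edges of 2727 H3K4me3 peaks (24.4%), 1 edge of 4465 (40.0%), and lay wholly inside 2199 (19.7%). The full shoulder pattern, with both edges covered and the centre free, held for 1442 peaks, or 12.9% (12.3 to 13.6). These 1442 were wide (median 3478 bp) and 93.9% of them overlapped H3K27ac, against 55.4% of the 1766 H3K4me3 peaks without H3K4me1.

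**Figure D3:**
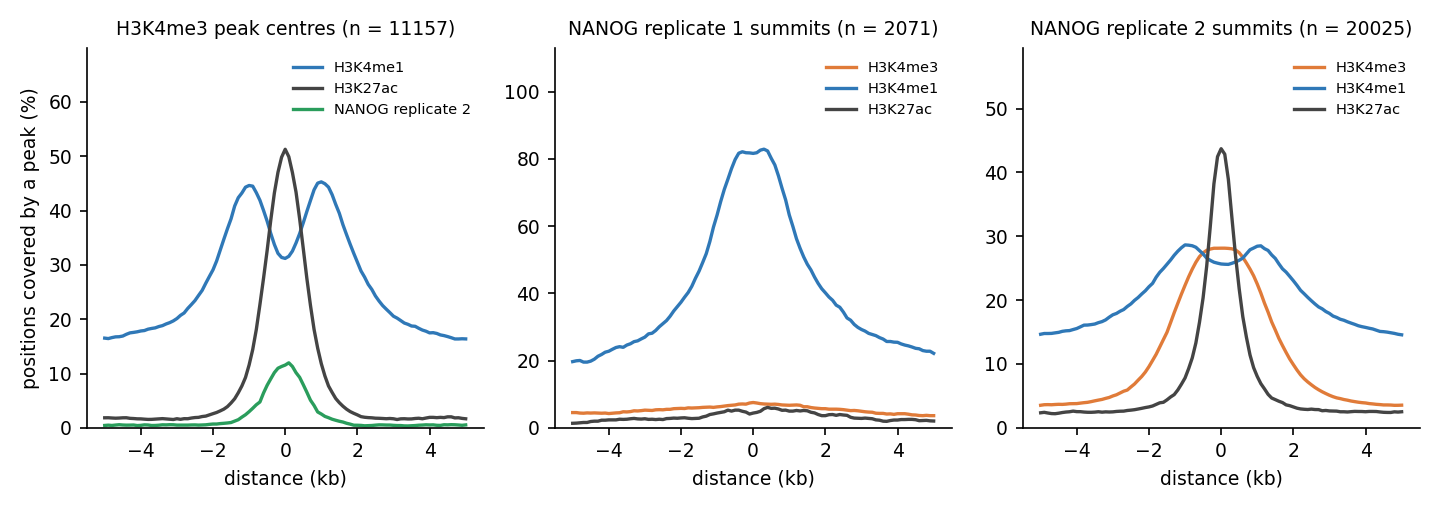
Share of positions (y axis, percent) covered by a knockout peak of each list against distance (x axis, kb) from H3K4me3 peak centres, NANOG replicate 1 summits and NANOG replicate 2 summits. The y axes differ between panels; H3K4me1 dips to 31.2% at H3K4me3 centres, covers 81.7% of NANOG replicate 1 summits, and H3K27ac covers 43.7% of NANOG replicate 2 summits.

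The share of each class with NANOG depended on which of the NANOG replicates was used. Replicate 2, the longer list, met 42.9% of all H3K4me3 peaks, 8.68% of all H3K4me1 regions and 32.6% of all H3K27ac peaks. Replicate 1 met 1.45%, 3.17% and 0.765% of them. Over the 63046 joined regions the shares were 17.7% and 2.78%. Replicate 2 therefore favoured H3K4me3 and H3K27ac peaks, and replicate 1 favoured H3K4me1 regions over both.

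Within promoter-like peaks, NANOG replicate 2 was most frequent where all marks met. NANOG replicate 2 overlapped 50.5% (49.4 to 51.7) of the H3K4me3 peaks with all 3 marks, 34.5% (31.5 to 37.5) of those with H3K27ac alone, 25.8% (23.8 to 27.8) of those with H3K4me1 alone and 18.8% (16.2 to 21.7) of those with neither. The 4 intervals do not overlap. NANOG replicate 1 overlapped 1.74%, 0.307%, 1.38% and 0.254% of the same classes. In that replicate the classes with H3K4me1 were the higher pair, but their own intervals overlapped (1.47 to 2.06 with all marks, 0.936 to 2.03 with H3K4me1 alone), as did those of the classes without H3K4me1 (0.104 to 0.898 and 0.0696 to 0.921). Per megabase, replicate 2 had 181 summits with all 3 marks, 162 with H3K27ac alone, 118 with H3K4me1 alone and 103 with neither, which keeps its order. Replicate 1 had 5.02 with all 3 marks and 5.36 with H3K4me1 alone, the reverse of its order by share.

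Within enhancer-like regions, both replicates placed NANOG more often where H3K27ac was present. Active enhancer-like regions overlapped NANOG in 6.21% (5.50 to 7.01) of cases in replicate 1 and 30.1% (28.7 to 31.5) in replicate 2. H3K4me1-only regions did so in 3.19% (3.01 to 3.37) and 4.75% (4.54 to 4.97). Either replicate was found at 33.0% of active enhancer-like regions. Since active regions were wider, summits were also counted per megabase of class sequence. Replicate 2 had 87.8 summits per Mb in active enhancer-like and 27.4 in H3K4me1-only regions, so its difference held per length. Replicate 1 had 16.5 and 18.2, so its difference did not hold per length.

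The same count separated the replicates across classes. Replicate 1 had its fewest summits per Mb among the classes of the 3 lists at H3K27ac peaks with neither methylation mark, 0.718, and 4.65 over all H3K4me3 peaks. Replicate 2 had 500 summits per Mb at H3K27ac peaks with H3K4me3 alone and 456 at those with all 3 marks. It had 484 at H3K27ac peaks with neither methylation mark and 306 at enhancer-like H3K27ac peaks. Over H3K4me3 peaks, which were wider, it had 168. The density of replicate 2 was thus highest inside H3K27ac peaks, including those where replicate 1 was nearly absent.

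**Figure D4:**
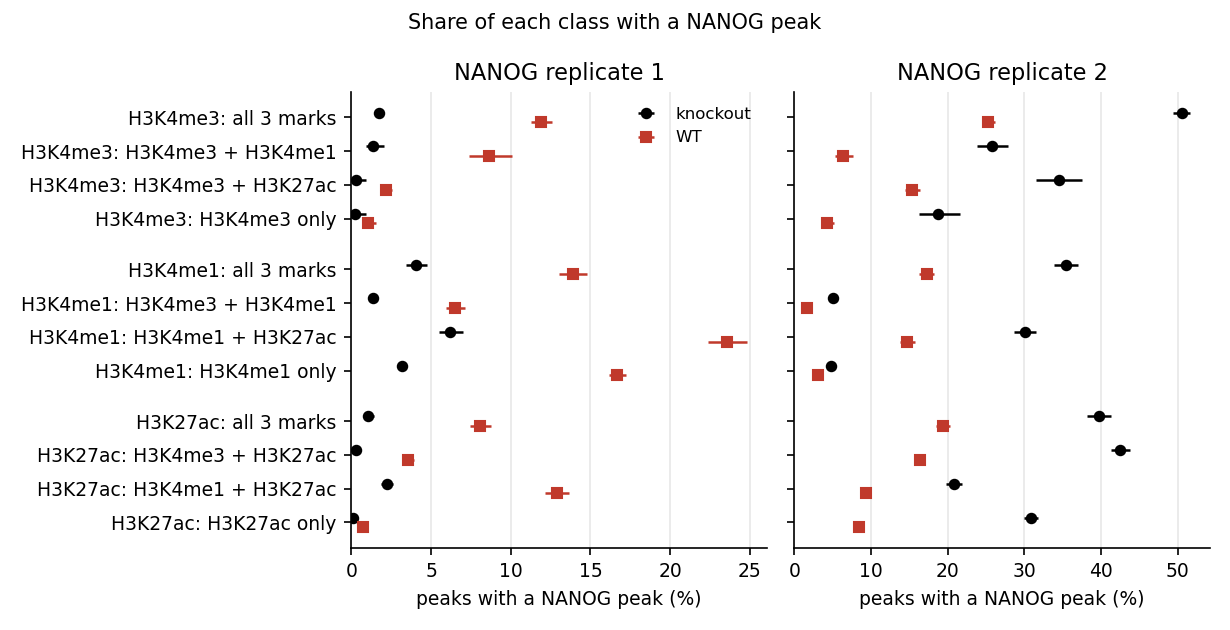
Share of the peaks of each class (x axes, percent, on different scales) that overlap a peak of NANOG replicate 1 or replicate 2, in knockout cells (circles) and WT cells (squares), with 95% Wilson intervals. Replicate 2 reached 50.5% of knockout H3K4me3 peaks with all 3 marks, and the highest knockout share in replicate 1 was 6.21%, in active enhancer-like H3K4me1 regions.

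Seen from the NANOG peaks, replicate 1 was an enhancer-like list. Of its 2071 peaks, 1525 (73.6%, 71.7 to 75.5) lay in H3K4me1 alone, 122 (5.89%) in active enhancer-like chromatin, 170 (8.21%) in promoter-like chromatin and 11 (0.531%) in H3K27ac alone. A further 243 (11.7%) overlapped no mark. H3K4me1 of any kind met 86.2% of its peaks and H3K27ac of any kind 9.13%. Its summits lay at a median of 0.641 kb from the nearest H3K4me1 centre and 58.0 kb from the nearest H3K4me3 centre.

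Replicate 2 was spread over all classes. Of its 20025 peaks, 6887 (34.4%, 33.7 to 35.1) overlapped no mark, 5665 (28.3%) were promoter-like, 3576 (17.9%) lay in H3K27ac alone, 2754 (13.8%) in H3K4me1 alone and 1143 (5.71%) in active enhancer-like chromatin. Its share with H3K27ac of any kind was 45.9%, and it increased with peak strength, from 32.1% of the lowest bin of −log10 p to 63.1% of the highest. The share with no mark went from 46.0% to 20.6% over the same bins. In replicate 1 the share with H3K4me1 went from 81.7% to 90.9%.

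The 2 NANOG replicates shared few positions. Only 298 peaks of replicate 1 (14.4% of that list) overlapped replicate 2, and 307 peaks of replicate 2 (1.53% of that list) overlapped replicate 1. Among the 298, 167 (56.0%) lay in H3K4me1 alone, 72 (24.2%, 19.6 to 29.3) in active enhancer-like chromatin and 43 (14.4%) in promoter-like chromatin. The active enhancer-like share was 5.89% in the whole of replicate 1 and 5.71% in the whole of replicate 2, lower than among the 298. The 298 are themselves a part of replicate 1. H3K4me1 met 86.2% of all replicate 1 peaks and H3K27ac met 45.9% of all replicate 2 peaks. Requiring a peak in both lists thus selects by both marks, and whether that alone gives the larger share was not tested. The strongest replicate 1 peaks were found again more often, 22.8% of the highest bin against 8.69% of the lowest.

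The sample descriptions come in 2 naming forms. Those of one run of NANOG replicate 1 and of H3K4me1 carry a common tag, while those of NANOG replicate 2, H3K4me3 and H3K27ac follow another form, and no label says which libraries were sequenced together. The agreement of replicate 1 with H3K4me1 and of replicate 2 with H3K27ac and H3K4me3 cannot be told apart from that division. The replicates also differ in length. With replicate 2 cut to its 2071 best-scoring peaks, it met 4.49% of active enhancer-like regions and 5.97% of H3K4me3 peaks, against 6.21% and 1.45% for replicate 1, and 69.4% of the peaks kept overlapped H3K27ac.

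H3K27ac peaks without H3K4me3 or H3K4me1 lay apart from the other classes. The 10127 peaks lay far from promoter-like chromatin, at a median of 131 kb from the nearest H3K4me3 peak and 32.6 kb from the nearest H3K4me1 region, against 20.3 kb to H3K4me3 for enhancer-like H3K27ac peaks. NANOG replicate 2 overlapped 30.9% of them (30.0 to 31.8) and NANOG replicate 1 overlapped 10 peaks, or 0.0987%. By bin of −log10 p, the replicate 2 share was 10.4%, 12.1%, 32.6% and 68.3%, and the replicate 1 share stayed between 0.0395% and 0.197%. Replicate 2 overlapped 20.8% of all enhancer-like H3K27ac peaks and 42.5% of H3K27ac peaks with H3K4me3 but no H3K4me1. Its share also increased with strength in these classes, from 14.3% to 33.0% and from 29.2% to 60.1%.

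The strong members of that class were also found in WT cells. WT H3K27ac peaks overlapped 37.4% of the lowest bin and 99.8% of the highest, and WT NANOG replicate 2 overlapped 4.58% and 29.5%. WT NANOG replicate 1 overlapped 0.474% and 0.750%. From the lowest to the highest bin, WT H3K27ac overlapped 68.1% to 97.5% of enhancer-like H3K27ac peaks. For H3K27ac peaks with H3K4me3 but no H3K4me1, its share went from 93.7% to 100%. The strong peaks of each of these classes were thus listed in both genotypes. No input signal was used here, so whether these positions are also high without an antibody was not tested.

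**Figure D5:**
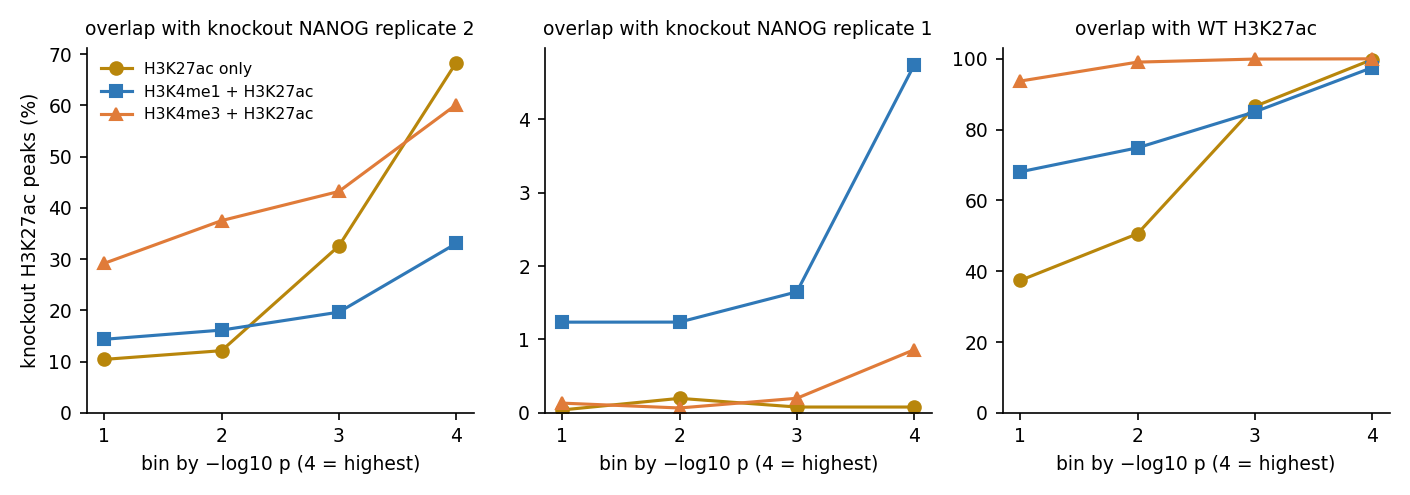
Knockout H3K27ac peaks of 3 classes, split into 4 equal bins of the authors' −log10 p (x axis, 4 is the highest), and the share (y axes, percent, on different scales) overlapping knockout NANOG replicate 2, knockout NANOG replicate 1 and WT H3K27ac. The H3K27ac-only class goes from 10.4% to 68.3% with NANOG replicate 2 and stays at or below 0.197% with replicate 1.

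NANOG overlap also went with width inside H3K4me3 peaks and both enhancer-like classes. From the narrowest to the widest of 4 equal bins, NANOG replicate 2 overlapped 26.5% to 61.0% of H3K4me3 peaks, 16.8% to 43.2% of active enhancer-like regions and 1.43% to 9.77% of H3K4me1-only regions. NANOG replicate 1 went from 0.304% to 15.7% in active enhancer-like regions and from 0.378% to 8.35% in H3K4me1-only regions. H3K27ac-only peaks showed no such order for replicate 1, which overlapped 0.158%, 0.0395%, 0.119% and 0.0790% of the bins from narrowest to widest, while replicate 2 went from 10.2% to 66.4%. In enhancer-like H3K27ac peaks replicate 1 overlapped 2.13%, 1.99%, 1.72% and 3.02%. Among these bins, the widest active enhancer-like regions (5232 to 49327 bp) had the highest share with replicate 1.

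WT cells gave the same kinds of class in other proportions. Of the WT H3K4me3 peaks, 58.2% overlapped H3K4me1 and 49.6% carried all 3 marks, against 84.2% and 67.9% in knockout cells. H3K27ac without H3K4me1 accompanied 28.9% of WT and 8.77% of knockout H3K4me3 peaks. The overlap of H3K4me3 with H3K27ac was near in both, 78.5% in WT and 76.7% in knockout cells. H3K4me1-only regions were 52.1% of the WT and 70.2% of the knockout H3K4me1 list, and active enhancer-like regions 12.9% and 7.27%. The full shoulder pattern held for 734 WT H3K4me3 peaks (3.91%) and 1442 knockout peaks.

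The differences in the shares of H3K4me3 peaks with H3K4me1 and with all 3 marks were smaller once the lists were matched in length. The WT lists held 18779 H3K4me3, 36001 H3K4me1 and 44579 H3K27ac peaks, so the knockout lists were shorter for H3K4me3 and H3K27ac and longer for H3K4me1. With the same number of best-scoring peaks in each genotype, H3K4me3 overlapped H3K4me1 in 69.8% of knockout and 62.6% of WT peaks, and all 3 marks met at 58.1% and 56.8%. With 1 list per genotype, no difference between genotypes is called.

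Knockout promoter-like peaks were nearly all WT peaks too. WT H3K4me3 peaks overlapped 99.6% of knockout H3K4me3 peaks, WT H3K27ac overlapped 82.3% of knockout H3K27ac peaks, and WT H3K4me1 overlapped 52.6% of knockout H3K4me1 regions. In the reverse direction, the knockout lists overlapped 59.5% of WT H3K4me3 peaks, 46.1% of WT H3K27ac peaks and 86.5% of WT H3K4me1 regions. The WT list was the longer for H3K4me3 and H3K27ac and the shorter for H3K4me1. By class, WT H3K4me1 was found at 76.5% of knockout active enhancer-like regions and 46.6% of knockout H3K4me1-only regions. Knockout NANOG replicate 1 peaks were found again in WT replicate 1 at 96.4%, and 21.4% of the longer WT list were found in knockout cells. For replicate 2 the knockout list was the longer, with 15.5% of its peaks in WT replicate 2, and 31.0% of the WT peaks were found in the knockout list. Taking the shorter list in each case, 96.4% of replicate 1 and 31.0% of replicate 2 peaks recurred in the other genotype.

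The WT lists bear on the enhancer-like name. Of the 3944 active enhancer-like regions in knockout cells, 1672 (42.4%, 40.9 to 43.9) overlapped a WT H3K4me3 peak, and 3928 of the H3K4me1-only regions (10.3%) did. The 2272 active regions without WT H3K4me3 overlapped NANOG replicate 1 in 6.95% and replicate 2 in 24.1% of cases, against 5.20% and 38.2% of the 1672 with it. Per megabase, the 2272 held 20.0 summits of replicate 1 and the 1672 held 12.4, while replicate 2 had 73.0 and 105. Regions without H3K4me3 in either genotype were thus richer in replicate 1 and poorer in replicate 2 summits. Whether the missing knockout H3K4me3 peaks reflect the shorter list was not tested.

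WT NANOG followed the same division between the replicates. In WT cells replicate 1 (9247 peaks) overlapped 23.6% and replicate 2 (10031 peaks) 14.7% of active enhancer-like regions, and 7.41% and 18.1% of H3K4me3 peaks. H3K4me1 of any kind met 65.7% of WT replicate 1 and 25.9% of WT replicate 2 peaks, against 86.2% and 27.7% in knockout cells. H3K27ac of any kind met 20.7% and 57.2%. Among WT replicate 1 peaks shared with replicate 2, 310 of 1444 (21.5%) were active enhancer-like, close in value to the 24.2% in knockout cells. Replicate 1 had fewer peaks in knockout than in WT cells and replicate 2 had more, so the replicates differ in which genotype has the longer list.

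The X chromosome stood apart in H3K4me1. Of the 341 knockout H3K4me3 peaks on the X, 41.1% (36.0 to 46.3) overlapped H3K4me1, against 85.7% (85.0 to 86.3) of the 10797 on autosomes. H3K27ac peaks on the X overlapped H3K4me1 in 5.89% of cases, against 38.4% on autosomes. H3K4me3 with H3K27ac was less far apart, 62.5% and 77.3%. The X held 11.7% of H3K4me3 peaks without other marks and 6.49% of H3K27ac peaks with neither methylation mark, but 1.37% of H3K4me3 peaks with all 3 marks and 0.652% of enhancer-like H3K27ac peaks.

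The WT lists showed the same X pattern, with H3K4me1 at 18.1% of X and 59.4% of autosomal H3K4me3 peaks. The H3K4me1 list itself had 1.43% of its regions on the X, against 3.06% for H3K4me3 and 3.62% for H3K27ac. NANOG replicate 2 overlapped 17.0% of X and 43.8% of autosomal H3K4me3 peaks in knockout cells. Coverage of the X in each library could not be read from peak lists, and its part in these values was not tested.

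Single regions show what the classes look like, in mm9 coordinates counted from 1 and with the authors' scores, on autosomes other than chromosome 18 and on the X. On the Y chromosome, 2 H3K4me3 peaks with neither other mark had a higher score, 3100, than any peak named for H3K4me3 here. The highest-scoring knockout H3K4me3 peak with all 3 marks, chr8:86421819-86429642, spanned 7824 bp with a score of 2573.08, 2 H3K4me1 regions, 3 H3K27ac peaks and 2 NANOG replicate 2 peaks. The second, chr14:122860583-122866204, spanned 5622 bp with a score of 2195.2, 1 H3K4me1 region and 2 H3K27ac peaks. Neither held a replicate 1 peak. The widest H3K4me3 peak, chr11:77497611-77518548, spanned 20938 bp at a low score of 91.15, so width and score came apart there.

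Off the Y, the leading promoter-like peaks that lacked a mark had lower scores than those with all 3 marks. The highest-scoring with H3K27ac but no H3K4me1, chr17:4993363-4997714, had a score of 1192.13 and 3 NANOG replicate 2 peaks. The highest-scoring with H3K4me1 but no H3K27ac, chr3:96358990-96366733, had a score of 1074.25 and 1 NANOG replicate 2 peak. At chr7:3216543-3221299, the second of that class, both NANOG replicates had a peak, with folds over background of 5.31 and 5.77 from the authors' caller. Off the Y, the highest-scoring H3K4me3 peak with neither mark was chr11:115792680-115797134, with a score of 1212.58. The widest peaks without H3K4me1 lay on the X: chrX:148234994-148239934 with 2 H3K27ac peaks, and chrX:100642377-100649138 with none.

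Active enhancer-like regions were led by chr11:60734416-60744591, a region of 10176 bp with an H3K4me1 fold of 4.56, 1 H3K27ac peak and 1 NANOG replicate 2 peak. The widest, chr7:29708734-29758060, spanned 49327 bp and held 3 H3K27ac peaks, 2 NANOG replicate 2 peaks and 1 replicate 1 peak with a fold of 13.9. The region with the most replicate 2 peaks among those with both replicates, chr2:33490325-33499071, held 4, with 1 replicate 1 peak and 2 H3K27ac peaks in 8747 bp. Among H3K4me1-only regions, the highest-scoring, chr11:60250358-60262867, had a fold of 4.78 and 1 NANOG replicate 1 peak and none of replicate 2.

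The H3K27ac-only class held some of the highest-scoring peaks of the H3K27ac list. By deposited score, the highest were chr9:101329812-101331230 and chr5:16409163-16410558, with scores of 3233.06 and 3223.52 and 1 NANOG replicate 2 peak each. The widest, chr3:6297353-6307588, spanned 10236 bp with a score of 3100 and 9 NANOG replicate 2 peaks. None of the 3 held a NANOG replicate 1 peak. A score of exactly 3100 was also listed for the H3K4me3 peaks on the Y, and whether it is a set value was not tested. The order of peaks near that score is therefore one of deposited score and not of strength. The H3K4me3 peak with the most NANOG replicate 2 peaks among those with both replicates, chr5:123581480-123595269, spanned 13790 bp and held 7 of replicate 2, 2 of replicate 1, 3 H3K4me1 regions and 4 H3K27ac peaks.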

How the data were processed

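Peak lists of H3K4me3, H3K4me1, H3K27ac and NANOG in knockout and WT cells were used as the authors deposited them. Per the submitters' processing notes, the build is mm9 and the tools named are Trim Galore, Bowtie2, MACS2, STAR, StringTie 1.3.4d, limma, HISAT2 and HOMER, without the step each did. The NANOG and H3K4me1 lists have the layouts of MACS2, in which the authors give a score, a fold enrichment ratio and −log10 p values. The deposited H3K4me3 and H3K27ac lists have the older MACS layout, whose deposited score is 10 times −log10 p, and it was divided by that factor here. All values are the authors' own and ranked peaks within a list only. RNA values are the authors' deposited TPM. Read depth is not stated in the lists. Run numbers in the names of the knockout NANOG replicate 1 list and of both H3K4me1 lists do not all appear in the descriptions of their samples, so the runs behind them are uncertain.

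Overlaps of at least 1 bp, classes, widths, distances between peak edges and coverage in steps of 100 bp to 5 kb were computed in Python 3.11.15 with pandas 2.3.3, numpy 2.4.6 and scipy 1.17.1. Figures were made in matplotlib 3.10.9. The overlap routines were tested on simulated intervals. Groups came from the sample titles. Replicate 1 of NANOG pools 2 samples in each genotype per the labels. Named regions were, in each of 7 classes, the 2 highest-scoring peaks and the widest, and the regions with the most NANOG replicate 2 peaks, of which the text gives a part, without chromosome 18. The members, classes and lists were chosen with earlier results of these data known. Alternatives were stricter overlaps, stricter peaks, autosomes, joined H3K4me1 regions, other NANOG lists and equal numbers of peaks. The BACH1 and input samples and the authors' lists of changed transcripts were not used here.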

Additional observations from a re-analysis of the deposited data

How the results depend on the processing

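No paired analysis was possible because the results come from no test: each histone mark had 1 list per genotype, and the NANOG lists, which share replicate numbers between genotypes, are given per replicate side by side. Shares were recomputed under other settings and called moved when they left the 95% interval of the reported value. Widths have no such interval and were called moved when they left a fixed margin around the reported median. Of the main shares, 60 of 95 values moved and 35 did not. Of the other shares and widths, 134 moved and 81 did not. Joining H3K4me1 regions within 1 kb could change no value, since no 2 were that close. With equal numbers, shares between the knockout H3K4me3 and H3K27ac lists could not change either, since both lists were already the shorter. The unmoved counts include these values, so they are no measure of stability there.

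With an overlap of at least 200 bp, knockout H3K4me3 overlapped H3K4me1 in 82.5% and both marks in 66.7% of peaks, H3K27ac lay at neither mark in 40.8%, and 6.71% of H3K4me1 regions were active enhancer-like. H3K4me1 then met 82.6% of NANOG replicate 1, H3K27ac 42.4% of replicate 2, and the WT H3K4me3 shares were 56.6% and 48.3%. With an overlap of at least 50% of the narrower peak, the 3 mark shares were 70.7%, 56.4% and 41.4%, the NANOG ones 82.1% and 44.0%, and active enhancer-like regions held replicate 2 in 32.1% and either replicate in 35.1%. In the better-scoring 50% of each list, the 4 mark shares were 63.4%, 49.7%, 51.2% and 6.29%. There, H3K4me1 met 76.5% of replicate 1, H3K27ac 41.6% of replicate 2, and replicate 2 met 29.4% of H3K4me3 peaks and 26.1% of active enhancer-like regions (either replicate, 28.7%). At a −log10 p of at least 10, with 92 H3K4me1 regions left, H3K4me3 overlapped H3K4me1 in 0.325% and both marks in 0.325%, H3K27ac lay at neither in 59.7%, and 22.8% of H3K4me1 regions were active enhancer-like. H3K4me1 met 1.80% of replicate 1, H3K27ac 57.9% of replicate 2, and replicate 2 met 10.1% of H3K4me3 peaks. The 21 active regions left held replicate 1 in 47.6%, replicate 2 in 19.0% and either in 57.1%.

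On autosomes alone, H3K4me3 overlapped H3K4me1 in 85.7% and both marks in 69.2%, and H3K27ac lay at neither in 38.1%. With equal numbers in both genotypes, these were 69.8%, 58.1% and 41.5%, 9.44% of H3K4me1 regions were active enhancer-like, and the WT H3K4me3 shares were 62.6% and 56.8%. With NANOG peaks of both replicates only, 2.43% of active enhancer-like regions held replicate 1, replicate 2 or either, 0.367% of H3K4me3 peaks held replicate 2, H3K4me1 met 90.3% of replicate 1 and H3K27ac 37.8% of replicate 2. With replicate 2 cut to the length of replicate 1, it met 5.97% of H3K4me3 peaks and 4.49% of active enhancer-like regions (either replicate, 9.23%), and H3K27ac met 69.4% of it. By summits, H3K4me1 met 81.7% of replicate 1 and H3K27ac 43.7% of replicate 2. Leaving out 1 NANOG replicate gave a pooled share of active enhancer-like regions of 6.21% to 30.1%. Without regions at a WT H3K4me3 peak, an alternative chosen after seeing the data, 4.19% of H3K4me1 regions were active enhancer-like and 24.1% of those held replicate 2 (either replicate, 27.9%). For all of these the cause was not tested. Depth is not stated in the lists, so what it limits cannot be given.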
